A study of Rattus norvegicus with 15 samples.

Results

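Among the genes counted in rat bone marrow mesenchymal stem cells, 50 had more reads in adipogenic medium and fewer in osteogenic medium than in untreated culture. They were chosen by their levels in CPM, a gene's reads divided by the library's total and scaled to 1000000 reads. With 0.5 CPM added to each group mean, the ratio of adipogenic to untreated culture was at least 2, that of osteogenic to untreated culture was at most 0.5, and the adipogenic mean was at least 5 CPM. The rule was applied to the 32883 rows with an Ensembl rat identifier, of 34480 rows in all. It left out 3 identifiers by name, of which 2 met the thresholds. Bone marrow cells of Sprague-Dawley rats, an outbred strain, were grown to confluence and formed 5 groups of 3 libraries. Control was untreated, Adi was kept in adipogenic differentiation medium, Adi_ASA in that medium with aspirin, Ost in osteogenic differentiation medium and Ost_ASA in that medium with aspirin. The labels do not state the aspirin dose, the make-up of the media, the time in culture, the age of the animals or whether libraries came from separate animals or dishes. P-values below therefore rest on library-to-library spread alone, part of which may be technical, and differences in time in culture cannot be told apart from those of medium.

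Marrow stromal cells can give rise to fat cells and to bone-forming cells. Adipogenic induction works through the transcription factors PPARG and the C/EBP family, which switch on genes for lipid uptake and storage, and osteogenic induction works through RUNX2 and osterix, which switch on genes of bone matrix and mineral deposition. Both programmes start from the same cells and are known to restrain each other, which makes genes with opposite levels in the 2 media informative about either path. Aspirin, acetylsalicylic acid, acetylates the cyclooxygenases, the enzymes that start prostaglandin synthesis.

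The libraries held 18373289 to 22817858 counted reads, so that 1 CPM stood for 18.4 to 22.8 reads. The count table does not pair its identifiers with gene symbols, and 0 identifiers matched the gene table used here. The genes are therefore given by identifier or by rank, their functions are not stated, and the markers of marrow stromal, fat, bone and other cells were not checked. Counts were not divided by transcript length, so an order of reads among genes is not an order of transcript numbers. In cultures of mixed cells, fewer cells of a type and less RNA per cell cannot be told apart.

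The values that chose the genes are given first, as a description with no test. Of 9995 Ensembl rows with an Adi mean of at least 5 CPM, 254 had an Adi to Control ratio of at least 2 and 1077 had an Ost to Control ratio of at most 0.5. The Adi to Control ratio of the 50 genes had a median of 2.90 and ran from 2.00 to 337. It was under 4 in 36 genes, from 4 to under 16 in 10 genes and at least 16 in 4 genes, with none between 8 and 16. The Ost to Control ratio had a median of 0.261 and ran from 0.0263 to 0.481. It was at most 0.25 in 21 genes. The added 0.5 CPM keeps this ratio up in genes that were low in Control: the 2 genes with 0 reads in all Ost libraries had 0.341 and 0.337. The Adi to Control and Ost to Control ratios share the Control libraries. Near the limits, the lowest Adi to Control ratios inside were 2.002, 2.017 and 2.034, and the nearest outside were 1.997, 1.989 and 1.973. The highest Ost to Control ratios inside were 0.481, 0.478 and 0.472, against 0.516, 0.523 and 0.524 outside. The lowest Adi means inside were 5.25, 5.37 and 5.52 CPM, against 3.82, 3.69 and 3.69 CPM outside. TMM scaling, which sets libraries against each other by the bulk of their genes, raised the Adi to Control ratio by 0.19 on the log2 scale, before the added 0.5 CPM. With it 66 genes met the rule, and all 50 were among them.

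**Figure D1:**
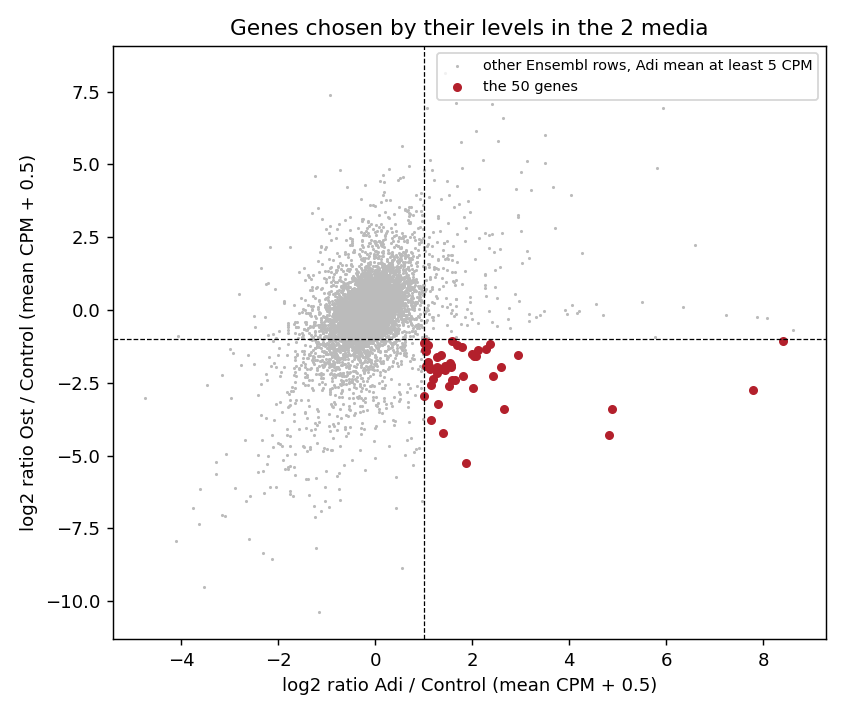
Ratio of Adi to Control mean CPM (horizontal axis) against ratio of Ost to Control mean CPM (vertical axis), both as log2 with 0.5 CPM added, for Ensembl rows with an Adi mean of at least 5 CPM. The 50 genes (red) lie beyond both dashed thresholds by construction, and 4 of them lie far to the right, with ratios of at least 16; the grey points beyond both lines are the 2 identifiers that the rule left out by name.

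The 50 genes took up 0.476% to 0.508% of the reads in Control, 1.54% to 1.73% in Adi and 0.0857% to 0.0942% in Ost. In the aspirin libraries, which the rule did not use, they took up 1.63% to 1.78% in Adi_ASA and 0.10% to 0.11% in Ost_ASA. A pair of genes held most of these reads, with 3834 to 4163 CPM together in Control, 11074 to 12056 CPM in Adi and 636 to 712 CPM in Ost. The other 48 genes summed to 889 to 915 CPM in Control, 4291 to 5246 CPM in Adi and 221 to 230 CPM in Ost. With aspirin the 48 summed to 5394 to 6025 CPM in Adi_ASA and to 246 to 296 CPM in Ost_ASA. The higher sum in Adi_ASA than in Adi came from the 4 genes with Adi to Control ratios of at least 16, which summed to 2040 to 2729 CPM in Adi and 3094 to 3527 CPM in Adi_ASA. The remaining 44 genes overlapped, at 2251 to 2517 CPM in Adi and 2301 to 2498 CPM in Adi_ASA, as did the pair with the most reads. Of the 50 genes, 33 had a lower mean CPM in Adi_ASA than in Adi. In osteogenic medium the 44 genes summed to 219.9 to 229 CPM in Ost and to 245 to 294 CPM in Ost_ASA, without overlap. In Ost_ASA replicate 1, which had the highest of these sums, ENSRNOG00000000070 alone held 50.5 CPM, against 1.27 to 1.90 CPM in the Ost libraries. The Ost libraries also chose the genes, for low levels, and the part of that choice in this difference was not tested.

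**Figure D2:**
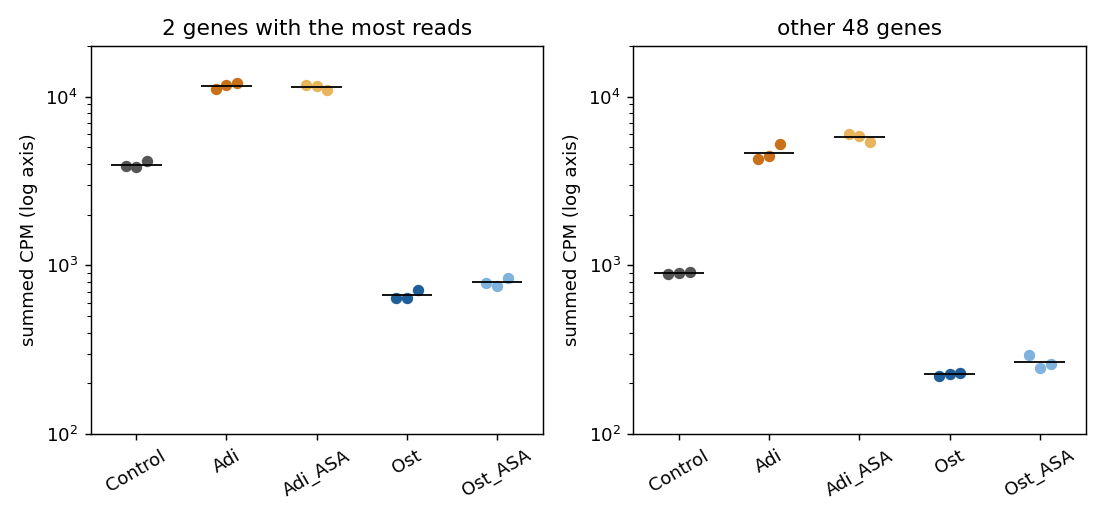
Summed CPM in each library (points, log axis) and the group mean (line) for the 2 genes with the most reads and for the other 48 genes. In both panels the adipogenic libraries lie above Control and the osteogenic libraries below it; the other 48 genes reach 5394 to 6025 CPM in Adi_ASA against 4291 to 5246 CPM in Adi, a difference carried by 4 of them, while the remaining 44 overlap at 2301 to 2498 against 2251 to 2517 CPM.

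The rule used group means, and the order of the single libraries is given here as a description. Every Adi library lay above every Control library in 48 of the 50 genes (16.1% of all genes tested), and every Control library above every Ost library in 49 (38.5%). Both held together in 48 genes (3.76% of all genes tested), and since the rule chose on these libraries, nothing is read from these counts. The order also held for 48 genes when the aspirin libraries were added to their media (2.65% of all genes tested). That count still includes the Control, Adi and Ost libraries that chose the genes, so nothing is read from it either. The Control means of the 50 genes ran from 0.815 to 3162 CPM with a median of 6.56 CPM, the Adi means from 5.25 to 9147 CPM with a median of 32.6 CPM, and the Ost means from 0 to 513 CPM with a median of 1.02 CPM. In Ost 25 genes were under 1 CPM, of which 22 had at least 1 CPM in Control, and 2 had 0 reads in all Ost libraries. At this depth 0 reads shows only that a gene was not detected.

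**Figure D3:**
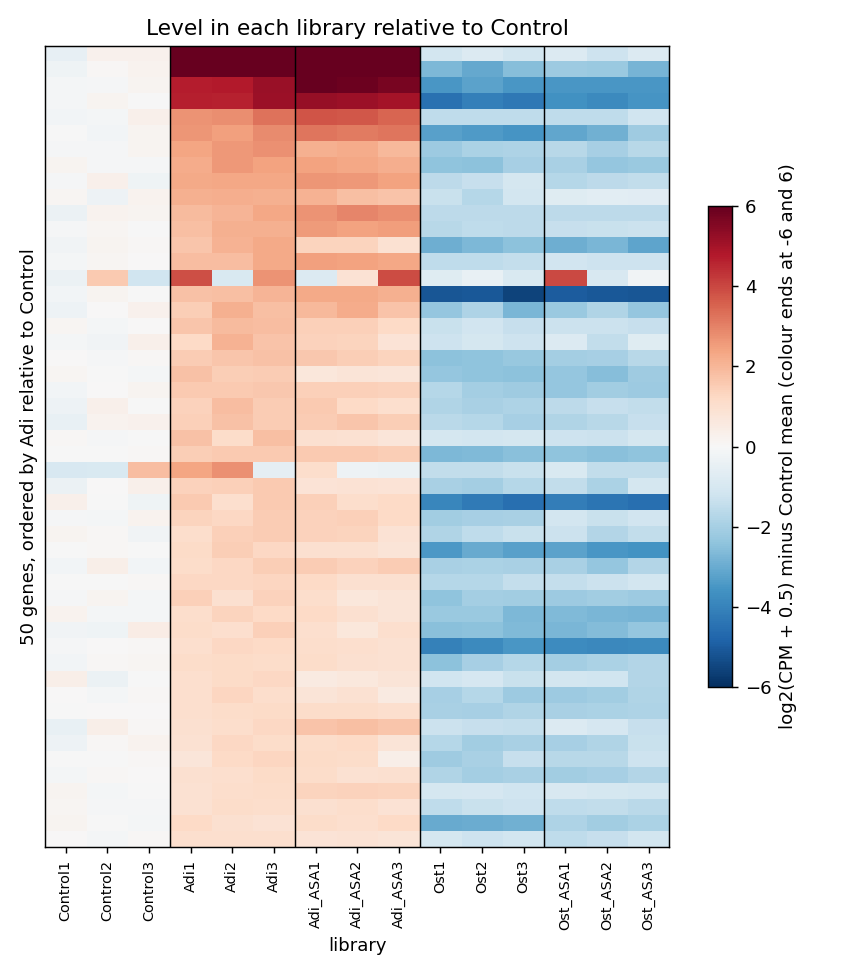
Level of each of the 50 genes (rows) in each of the 15 libraries (columns), as log2(CPM + 0.5) minus the Control mean, red above and blue below Control. Adipogenic libraries are red and osteogenic libraries blue with and without aspirin, except in 2 rows whose colour changes between libraries of the same group.

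The gene with the most reads had 3078, 3089 and 3320 CPM in the Control libraries, 8775, 9277 and 9388 CPM in Adi and 492, 497 and 550.3 CPM in Ost. Its aspirin libraries held 9364, 9257 and 8892 CPM in Adi_ASA and 592, 557 and 586 CPM in Ost_ASA. The Adi and Adi_ASA values overlapped, and all Ost_ASA values lay above all Ost values, a difference that did not pass the test (log2 fold change 0.19, SE 0.06, edgeR adjusted p = 0.115). The gene next in reads had 746 to 843 CPM in Control, 2299 to 2668 CPM in Adi, 2001 to 2406 CPM in Adi_ASA, 144 to 162 CPM in Ost and 194 to 252 CPM in Ost_ASA. Its Adi and Adi_ASA values overlapped too. Its rise from Ost to Ost_ASA passed the test (log2 fold change 0.53, SE 0.10, edgeR adjusted p = 0.00465). The Ost libraries also chose the genes, for low levels. In both genes the difference between the media was graded, with at least 144 CPM left in every Ost library.

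The 4 genes with Adi to Control ratios of at least 16 had Control means from 0.815 to 22.5 CPM and Ost means under 1 CPM. ENSRNOG00000010079 had the largest ratio of Adi to Ost, at 1509 with 0.5 CPM added. Its Control libraries held 3.37, 4.27 and 4.79 CPM, its Adi libraries 929.8, 976 and 1185 CPM, and its Ost libraries 0.222, 0.0544 and 0.273 CPM, from 12 reads in all. ENSRNOG00000056457 came next by that measure, with a ratio of 701, an order that depends on the added 0.5 CPM because Ost means were near 0. It had 0.394, 1.03 and 1.02 CPM in Control, 394, 399 and 536 CPM in Adi, and 0.0887, 0.218 and 0.0911 CPM in Ost. It had 50 reads over the Control libraries and 8 over the Ost libraries, so its Ost to Control ratio of 0.481, just inside the limit, is set largely by the added 0.5 CPM. The other 2 genes of this kind reached 164 ± 30.7 and 651 ± 137 CPM in Adi (SD, n = 3), against 5.12 ± 0.604 and 22.5 ± 2.23 CPM in Control. In all 4 genes Adi replicate 3 was the highest of the Adi libraries, and together they made up 2729 CPM there against 2040 and 2095 CPM in Adi replicates 1 and 2. Adi replicate 3 was the highest Adi library for 28 of the 50 genes and for 26.5% of all genes tested.

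The level of 2 genes varied between libraries of the same group, and they were singled out after their values were seen. ENSRNOG00000000070 had 47.1, 1.24 and 21.2 CPM in Adi and 2.06, 9.37 and 0.918 CPM in Control. It was at 1.34, 5.44 and 49.0 CPM in Adi_ASA, at 50.5, 1.20 and 2.33 CPM in Ost_ASA, and at 1.27 to 1.90 CPM in Ost. The groups overlapped, and a level near 50 CPM was reached by 1 library each of Adi, Adi_ASA and Ost_ASA. ENSRNOG00000061056 had 6.60, 8.71 and 0.437 CPM in Adi and 0.219, 0.245 and 4.44 CPM in Control, so that these groups overlapped too. The standard deviation was 99.2% and 81.9% of the Adi mean in these genes and at most 33.6% in the other 48. Membership of both thus rests on means that 1 or a few libraries set.

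The aspirin libraries allow a comparison of the media in samples that the rule did not use. Adi_ASA was above Ost_ASA in all 50 genes, by a median log2 fold change of 3.89, against 0.01 over all 15543 genes tested. All 50 genes had enough reads to be tested, which their Adi levels made likely. The difference passed the test in 48 genes, all higher in Adi_ASA (edgeR quasi-likelihood test, adjusted p under 0.05), where 32.9% of all genes tested were called higher in Adi_ASA and 32.8% lower, 65.7% in all. The 48 log2 fold changes ran from 2.39 upwards and were at least 4 in 24 genes. The medium contrast thus had the same sign with aspirin present as the rule had set without it, in libraries of its own. The Adi_ASA and Ost_ASA libraries did not overlap in 49 genes, as in 31% of all genes tested for Adi_ASA above Ost_ASA.

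ENSRNOG00000010079 had 1430.1, 1442 and 1348 CPM in Adi_ASA and 0.502, 0.478 and 0.176 CPM in Ost_ASA (log2 fold change 11.90, SE 0.20, edgeR adjusted p = 8.50e-18). ENSRNOG00000056457 had 896, 829 and 727 CPM in Adi_ASA and 0.228, 0.0478 and 0.219 CPM in Ost_ASA (log2 fold change 12.28, SE 0.29, edgeR adjusted p = 1.07e-12). These sizes rest on 25 and 11 reads over the Ost_ASA libraries. Another 2 genes had 0 reads in Ost_ASA and were at least 7072-fold and at least 213.9-fold higher in Adi_ASA, against 3 reads over the group. The 2 genes that missed the threshold were those that varied between replicates. ENSRNOG00000000070 had a log2 fold change of 0.13 (SE 1.53, edgeR adjusted p = 0.947), which turned to -2.31 without Adi_ASA replicate 3 and was 3.46 without Ost_ASA replicate 1. ENSRNOG00000061056 had 3.92 (SE 1.91, adjusted p = 0.0950), and was called by DESeq2 (adjusted p = 0.0245) and by edgeR on the compared groups alone (adjusted p = 0.0170).

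Set beside Control, whose libraries the rule used, the Adi_ASA mean was above the Control mean in 49 genes and at least 2-fold above it, with 0.5 CPM added, in 34. The Ost_ASA mean was below the Control mean in 49 genes and at most 0.5 of it in 46. The median ratio to Control was 2.46 in Adi_ASA and 0.281 in Ost_ASA. The genes were chosen for their ratios in Adi and Ost, of which the medians were 2.90 and 0.261, so the nearer ratios with aspirin cannot be told apart from that choice.

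Aspirin in adipogenic medium moved 12 of the 50 genes, in both directions. In Adi_ASA 5 genes rose and 7 fell relative to Adi (edgeR adjusted p under 0.05), where 2.49% of all genes tested rose and 1.85% fell, 4.34% in all. The Adi libraries also served the rule, which chose genes for high Adi levels, and the part of that choice in the falls was not tested. The median log2 fold change was -0.20, against 0.00172 over all genes tested, and 34 genes had a negative value. The rises ran from 0.26 to 0.92 and the falls from -0.43 to -0.98 on the log2 scale. In 38 genes the difference did not pass the test. By CPM alone, every Adi_ASA library lay above every Adi library in 12 genes (19.7% of all genes tested) and below in 14 (6.23%), and TMM scaling shifts this contrast by -0.06 on the log2 scale.

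The rises included 3 of the 4 genes with the highest Adi to Control ratios. Each of the 5 rises lost its call under at least 1 of 11 alternative analyses, and the 3 calls kept under all of them were falls. ENSRNOG00000055078 had 143.8, 149.5 and 199.7 CPM in Adi and 348, 331 and 293.5 CPM in Adi_ASA, with no overlap (log2 fold change 0.92, SE 0.14, edgeR adjusted p = 0.00683). Its Control libraries lay between 4.73 and 5.81 CPM, and its mean went from 32.1 times the Control mean in Adi to 63.3 times in Adi_ASA. ENSRNOG00000056457, given by library above, went from 443 ± 80.3 CPM in Adi to 817 ± 84.7 CPM in Adi_ASA (SD, n = 3; log2 fold change 0.82, SE 0.14, edgeR adjusted p = 0.00683). Both rises lost their call when the model held only the Adi and Adi_ASA libraries, with adjusted p = 0.0639 and 0.0919, and were larger without Adi replicate 3, at 1.10 and 1.00. The third rise among these genes was 0.39 (SE 0.10, edgeR adjusted p = 0.0418) and lost its call under 7 of the 11 alternatives, with adjusted p up to 0.160, and the fourth gene had 0.22 (SE 0.13, adjusted p = 0.426).

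None of the 7 falls was among those 4 genes. ENSRNOG00000011016 had 107.7, 124 and 120.1 CPM in Adi and 92.0, 91.1 and 77.0 CPM in Adi_ASA, without overlap (log2 fold change -0.49, SE 0.08, edgeR adjusted p = 0.000586). ENSRNOG00000013526 had 34.5, 40.7 and 44.4 CPM in Adi and 29.1, 30.4 and 25.6 CPM in Adi_ASA, also without overlap (log2 fold change -0.55, SE 0.11, edgeR adjusted p = 0.00499). With aspirin both stayed above Control, where they were at 33.4 ± 2.82 and 6.21 ± 0.590 CPM (SD, n = 3). Among the 17 genes with a higher mean CPM in Adi_ASA than in Adi, Adi replicate 3 was the highest Adi library in 14, and among the 33 with a lower mean in 14. Its part in the result was not tested. Without it 8 genes rose and 6 fell. Without Adi replicate 2 or without Adi_ASA replicate 3, 2 genes rose and 4 fell, and DESeq2 called 10 in each direction.

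**Figure D4:**
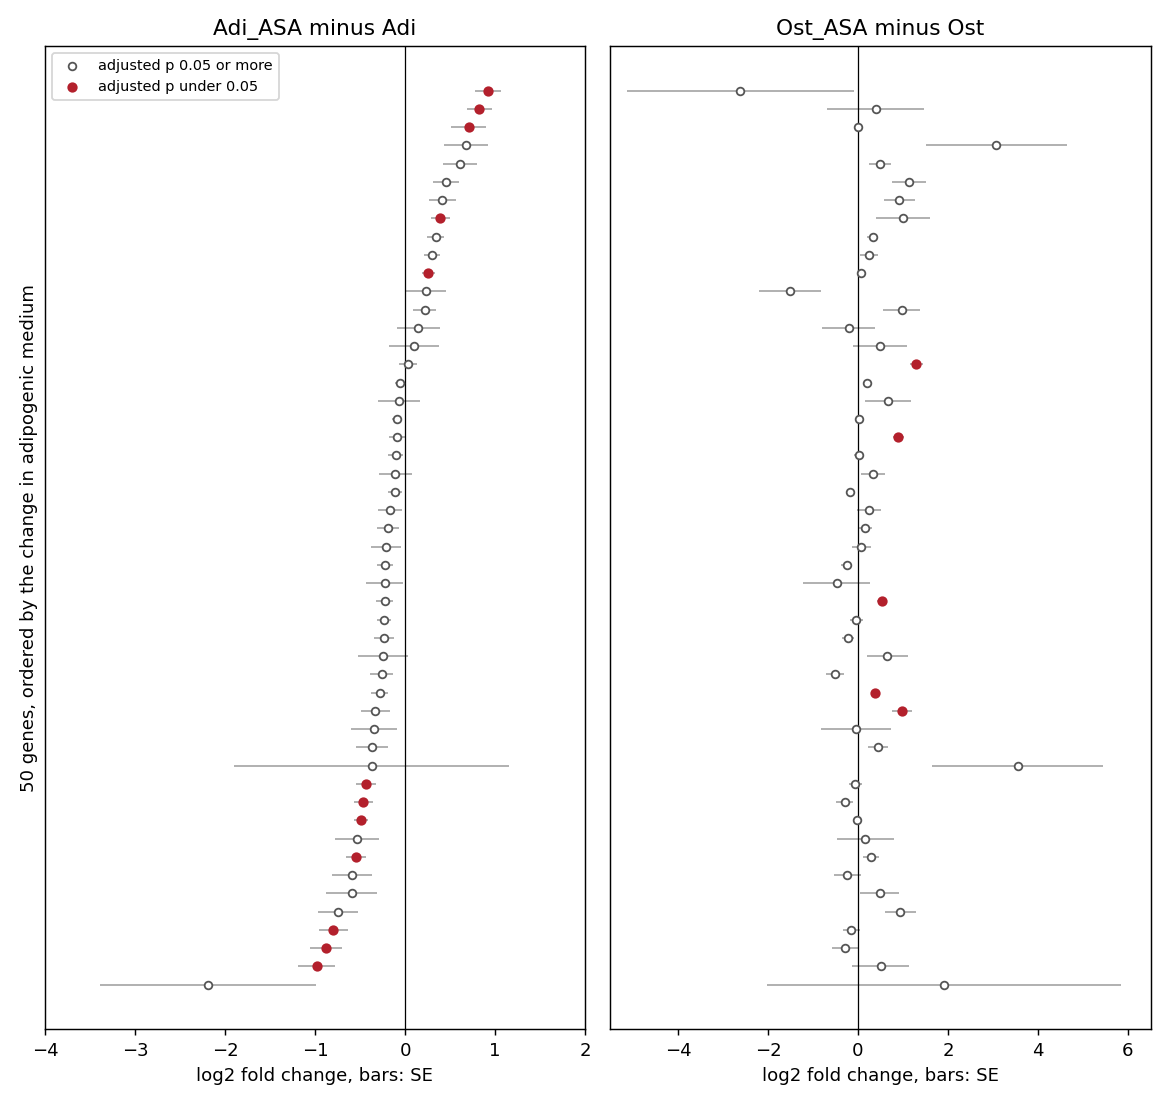
Log2 fold change with aspirin for each of the 50 genes in adipogenic medium (left) and in osteogenic medium (right), in the same gene order, with bars of 1 standard error and filled points for an edgeR adjusted p under 0.05. In the left panel 5 filled points lie to the right of 0 and 7 to its left. In the right panel, whose axis spans a wider range, all 5 lie to the right of 0. Wide bars in the right panel mark genes with few reads in Ost and also ENSRNOG00000000070, whose Ost_ASA libraries varied, while a gene with 0 reads in both groups is drawn at 0.

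In osteogenic medium, where these genes were low, aspirin raised 5 of the 50 and lowered none (edgeR adjusted p under 0.05), against 2.34% of all genes tested that rose and 1.29% that fell, 3.63% in all. At an unadjusted p under 0.05 the counts were 10 and 1, and DESeq2 called 8 rises and 0 falls. The Ost libraries also served the rule, which chose genes for low Ost levels. The part of that choice in the rises and in the lack of falls was not tested. In Ost 25 of the 50 genes were under 1 CPM, which limits the falls that could be detected. By CPM alone, every Ost_ASA library lay above every Ost library in 11 genes (9.11% of all genes tested) and below in 0 (9.97%). The median log2 fold change was 0.25, against 0.003 over all genes tested. ENSRNOG00000060237 had 1.33, 1.36 and 1.55 CPM in Ost and 3.65, 3.06 and 3.55 CPM in Ost_ASA (log2 fold change 1.29, SE 0.14, edgeR adjusted p = 1.49e-05). ENSRNOG00000004476 had 3.90, 4.25 and 4.46 CPM in Ost and 8.18, 7.03 and 7.99 CPM in Ost_ASA (log2 fold change 0.90, SE 0.12, edgeR adjusted p = 0.000105). Neither gene's libraries overlapped between the groups. Both stayed below Control with aspirin, at 23.7% and 41.9% of the Control mean, against 9.78% and 22.8% without it. The other 3 rises were of 0.38, 0.53 and 0.98 on the log2 scale, and these genes reached 27.1% to 54.1% of their Control means in Ost_ASA. Only 3 genes were called without Ost replicate 1, without Ost replicate 2, and when the model held only the Ost and Ost_ASA libraries, where 32 of the 50 had enough reads to be tested.

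**Figure D5:**
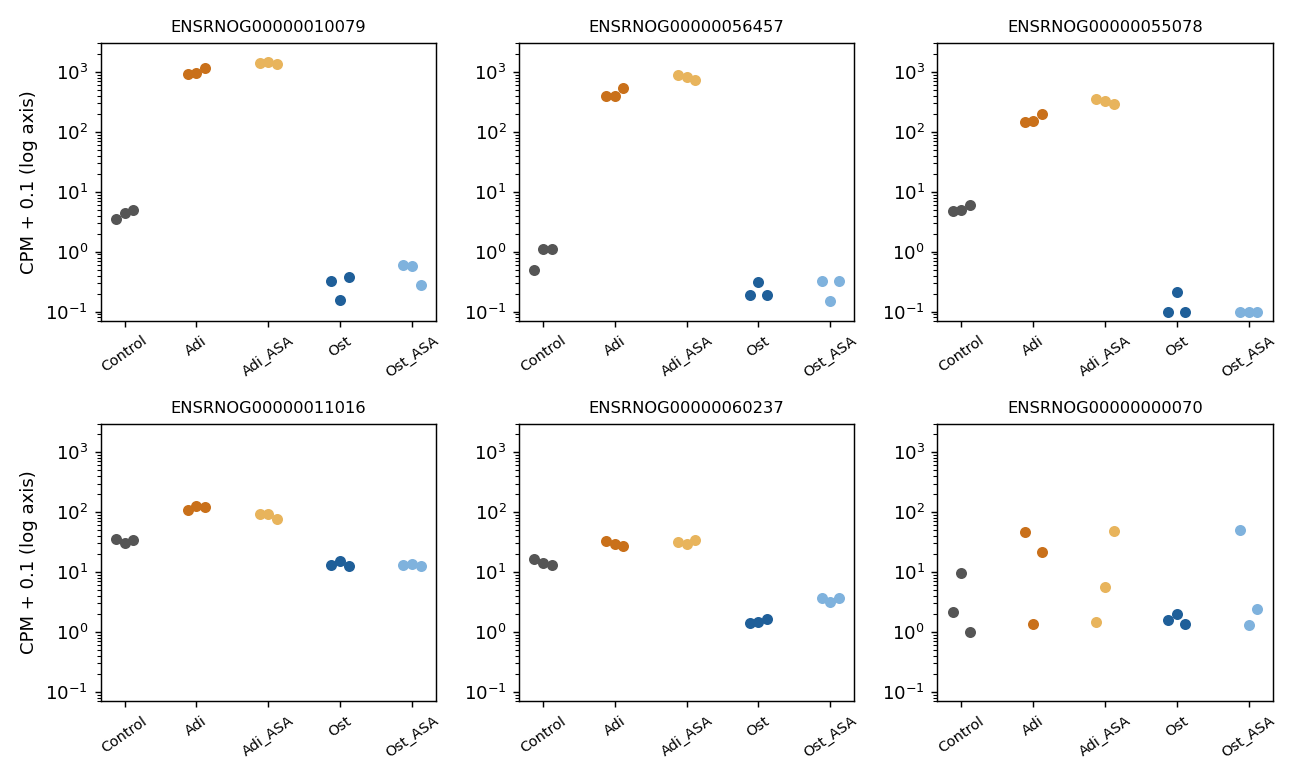
CPM + 0.1 in each library (log axis) of 6 of the genes, with a point for each of the 3 libraries of a group. ENSRNOG00000010079, ENSRNOG00000056457 and ENSRNOG00000055078 span from below 1 CPM in osteogenic to at least 143.8 CPM in adipogenic libraries, ENSRNOG00000011016 is lower in Adi_ASA than in Adi, ENSRNOG00000060237 is higher in Ost_ASA than in Ost, and ENSRNOG00000000070 varies between libraries of the same group.

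The effect of aspirin differed between the media in 8 of the 50 genes by the interaction term (edgeR adjusted p under 0.05), in each case more negative in adipogenic medium, where 1.63% of all genes tested were more negative and 1.2% more positive, 2.83% in all. No gene was more positive in adipogenic medium; at an unadjusted p under 0.05 there were 11 and 1, and DESeq2 called 10 and 0. The Adi and Ost libraries also chose the genes, for high Adi and low Ost levels, so the sign of this difference cannot be told apart from that choice. Of the 8 genes, 5 had risen with aspirin in osteogenic medium alone, 2 had fallen in adipogenic medium alone, and 1 had passed neither test. For ENSRNOG00000060237 the difference was -1.26 (SE 0.17, edgeR adjusted p = 0.000258), from 0.03 in adipogenic and 1.29 in osteogenic medium. For ENSRNOG00000004476 it was -0.99 (SE 0.15, edgeR adjusted p = 0.000572), from -0.09 and 0.90. Leaving out Adi replicate 3, Adi_ASA replicate 3, Ost replicate 1 or Ost_ASA replicate 3 left 5 genes.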

How the data were processed

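RNA sequencing of 15 libraries was deposited by the authors as 1 table of unnormalised read counts per gene (34480 rows). The build Rnor_6.0 and the tools DESeq 1.18.0, HTSeq 0.9.1 and HISAT2 2.0.4 are named per the submitters' processing notes. What each tool did, whether counting used strand and which gene models it used were not stated in what was read here, so counts of overlapping or near-identical genes are uncertain. Columns were matched to samples by title. Levels and the membership rule use CPM by column total, and tests use edgeR 4.0.16 in R 4.3.3: filterByExpr (15543 genes, at least 99.9% of reads), TMM factors (0.911 to 1.07), 1 quasi-likelihood model of 5 group means over all libraries, and Benjamini-Hochberg adjustment at 0.05. The model was also run on simulated data with the same spread for every gene and changes placed in Adi_ASA alone. That run differs from these data in spread, its outcome is not given, and nothing is read from it. Standard errors are the log2 fold change divided by the square root of F. Replicate pairs differed by more than sampling of reads gives (5.41 to 13.5 as chi-square over its degrees of freedom). The genes, lists and tests were chosen with earlier results of these data known. The 27 gene lists could not be matched to identifiers and were not used, nor were fits of Adi or Ost against Control, planned for them alone. The naming rule covered the most reads, the largest Adi to Ost ratios, the smallest adjusted p per aspirin comparison and the genes nearest the thresholds; without symbols, identifiers are printed for at most 2 genes in each direction of a comparison, and other genes are given by rank or value. Alternatives were RLE factors, DESeq2 1.42.0, no filter, a replicate block, only the compared groups, and each library left out.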

Additional observations from a re-analysis of the deposited data

Results flagged for a closer look

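The aspirin effect, tested as an interaction, differed between the media in 8 of the 50 genes, all more negative in adipogenic than in osteogenic medium on the log2 scale (edgeR adjusted p 0.000258 to 0.0322). The Adi and Ost libraries in this test also chose the genes, for high Adi and low Ost levels, so the sign of the difference cannot be told apart from that choice. The differences were -1.26 for ENSRNOG00000060237 and -0.99 for ENSRNOG00000004476, and -0.76, -1.31, -0.66, -1.69, -0.84 and -0.47 for the other 6. Over these 8 genes the log2 fold changes with aspirin ran from -0.75 to 0.03 in adipogenic and from -0.02 to 1.29 in osteogenic medium, and 6 were negative in the first and positive in the second.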

How the results depend on the processing

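The 48 genes called higher in Adi_ASA than in Ost_ASA kept the call under all 11 alternatives. The aspirin calls were less stable: 3 of the 12 in adipogenic medium (0 of the 5 rises and 3 of the 7 falls), 3 of the 5 in osteogenic medium and 5 of the 8 interactions kept theirs under every alternative run, and none of these genes changed direction. DESeq2 called 20 of the 50 genes in adipogenic medium (12 by edgeR) and 8 in osteogenic medium (5), and 3 were called in osteogenic medium with only the compared groups. With each library left out in turn, the count of the 50 genes called ran from 6 to 14 in adipogenic medium, from 3 to 6 in osteogenic medium and from 5 to 8 for the interaction, and that of all genes from 284 to 529 (675 with all libraries), from 335 to 536 (564) and from 288 to 427 (440). The count of all genes moved by more than 1.5 times without Adi replicate 2 or 3 or any Adi_ASA library, without Ost replicate 1 or 2 or Ost_ASA replicate 3, and for the interaction without Adi_ASA replicate 3. ENSRNOG00000000070, not called between Adi_ASA and Ost_ASA, ran from -2.31 to 3.46. The rule gave 48 to 53 genes with a library left out, 60 with 0.1 and 38 with 1 CPM added, and 66 with TMM scaling. Replicate numbers did not pair the libraries (correlation of deviations -0.088 to 0.062 over 30 pairs). With the replicate number as a block, 48, 12, 5 and 8 of the 50 genes and 10122, 572, 516 and 404 of all genes were called between Adi_ASA and Ost_ASA, with aspirin in adipogenic and osteogenic medium, and for the interaction. In Ost, 25 of the 50 genes were under 1 CPM, which limits what could be detected there.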

Other observations

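The opposite pattern, at most 0.5 of Control in Adi and at least 2-fold in Ost with an Ost mean of at least 5 CPM, was met by 67 Ensembl rows. Of the 1597 rows without an Ensembl identifier, 8 met the thresholds of the rule.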
